A study of Mus musculus with 26 samples.

Results

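The genes described here encode proteins that help to modify, fold, trim or crosslink collagen: Serpinh1, Plod1, Plod2, P4ha1, P3h1, Bmp1, Pcolce, Lox, Loxl2 and Loxl3. These 10 genes were taken by symbol from a count table of 26264 symbols. All 10 were found, and all 10 had enough counts to be among the 16566 genes tested. RNA sequencing gave their levels in 18 libraries of bone-forming osteoblasts isolated from mouse femur and cultured, with 3 libraries in each of 6 groups. Wild type C57BL/6J mice gave the groups YOUNG, at an age of 3 months, and OLD, at 18 months. CKO-YOUNG and CKO-OLD were conditional knockouts of the Kdm2b CxxC domain (Kdm2b fl/fl with Ocncre and the Ai14 reporter), in which the osteocalcin promoter drives Cre, and their cells were screened after isolation. The protein made from Kdm2b binds DNA through this domain and belongs to PRC1.1, a Polycomb complex. CON-YOUNG, the control, carried Ocncre and Ai14. CON-OLD-iBP is named in the labels as an old control with iBP, a code that they do not expand. No age in months is stated for the groups of the knockout experiment. All cells were C57BL/6J and were cultured in the same serum-containing medium. No old Ocncre control without iBP was analysed here, so OLD, for which no driver or reporter is stated, served as the reference for CKO-OLD and CON-OLD-iBP. Whether replicates are different mice or only repeat preparations is not stated, and the p-values rest on a spread among libraries that may be technical.

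Fibrillar collagen is modified, folded, trimmed and crosslinked. In the endoplasmic reticulum P4ha1, the catalytic subunit of a prolyl 4-hydroxylase, makes the hydroxyprolines that keep the triple helix stable. P3h1 hydroxylates a few other prolines in a complex with cartilage-associated protein, and the lysyl hydroxylases Plod1 and Plod2 act on lysines of the helix and of the telopeptides. Serpinh1 encodes HSP47, a chaperone that binds the folded helix. Outside the cell Bmp1 removes the C-propeptide with the help of Pcolce, and Lox, Loxl2 and Loxl3 oxidise lysines, the first step of crosslinking. Loss of several of these proteins gives brittle bone.

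RefSeq promoter sequences (GRCm38.p6) were at hand for 5 of the 10 genes. Those of 4 genes are shown, as the 2 pairs Serpinh1 and P3h1, and Plod1 and P4ha1, whose log levels were correlated across the libraries (for Plod1 and P4ha1 this rested on 2 libraries). Each is the 250 bases before a gene's start, read 5′ to 3′ toward the gene. The windows are chr7:99353240-99353489 on the minus strand for Serpinh1, chr4:119232665-119232914 on the plus strand for the first start listed for P3h1, chr4:147936777-147937026 on the minus strand for Plod1 and chr10:59323046-59323295 on the plus strand for P4ha1. Capitals mark ACGTG or GCGTG on either strand (CACGT and CACGC as printed), the core letters bound by hypoxia-inducible factors.
Serpinh1: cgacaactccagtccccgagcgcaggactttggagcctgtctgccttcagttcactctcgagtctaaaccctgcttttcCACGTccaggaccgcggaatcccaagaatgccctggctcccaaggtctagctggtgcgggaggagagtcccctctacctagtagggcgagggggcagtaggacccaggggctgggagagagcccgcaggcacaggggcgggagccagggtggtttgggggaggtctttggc
P3h1: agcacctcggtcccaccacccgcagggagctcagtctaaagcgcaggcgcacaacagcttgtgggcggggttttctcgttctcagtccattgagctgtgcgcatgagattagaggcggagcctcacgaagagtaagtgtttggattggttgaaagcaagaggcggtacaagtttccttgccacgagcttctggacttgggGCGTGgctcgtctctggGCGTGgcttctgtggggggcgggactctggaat
Plod1: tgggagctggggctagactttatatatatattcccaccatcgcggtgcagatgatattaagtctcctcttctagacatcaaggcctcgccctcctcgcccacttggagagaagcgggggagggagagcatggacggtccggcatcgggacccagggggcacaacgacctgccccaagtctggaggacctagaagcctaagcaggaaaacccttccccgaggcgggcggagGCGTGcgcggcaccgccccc
P4ha1: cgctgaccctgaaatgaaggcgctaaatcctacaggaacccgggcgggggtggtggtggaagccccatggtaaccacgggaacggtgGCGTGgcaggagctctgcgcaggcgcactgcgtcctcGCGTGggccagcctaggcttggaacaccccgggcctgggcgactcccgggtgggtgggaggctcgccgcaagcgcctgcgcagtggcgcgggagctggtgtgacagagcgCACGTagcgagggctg
ACGTG was found 1 time in the Serpinh1 window and 1 time in that of P4ha1, and at least 1 time in 16.6% of 32851 promoter windows of the same length. GCGTG was found 2 times each for P3h1 and P4ha1 and 1 time for Plod1, and in 28.2% of all windows. All 4 windows held GGGCGG, a GC box found in 32.7% of all windows. TATAAA was present in that of Plod1, against 12.4% of all windows, and CCAAT in that of P3h1, against 33.8%. The motifs were searched on both strands and counted separately, so that matches may overlap. RefSeq lists a second start for P3h1, whose window is not shown. It held ACGTG 2 times, GCGTG and GGGCGG 0 times and CCAAT 1 time, so the P3h1 matches depend on the start chosen. A match describes letters in the window, not a bound site.

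The libraries differed in ways the groups do not explain. Total counts ran from 46272076 to 77698781 per library. One count was thus worth 0.0127 to 0.0203 CPM (counts scaled to a library of 1000000, with a correction for library composition), far below the level of any of the 10 genes. The libraries were parted into 3 sets. Set 3 was defined by a share of counts from Malat1, a nuclear RNA, above 0.05%, and held YOUNG 3, OLD 2, CON-YOUNG 3, CKO-YOUNG 3, all of CKO-OLD and all of CON-OLD-iBP. The other libraries, which Malat1 does not separate, were parted by group label alone: set 1 held YOUNG 1 and 2 and OLD 1 and 3, and set 2 held CON-YOUNG 1 and 2 and CKO-YOUNG 1 and 2. The 14 macrophage markers together took 0.984% to 1.54% of counts in set 1. Their share was 0.014% to 0.0196% for set 2 and 0.0466% to 0.615% for set 3. Set 1 expressed Xist and the remaining libraries Ddx3y, and CKO-YOUNG 3 had both (372 and 21.3 CPM). All 10 osteoblast markers were detected, at 1.34% to 5.54% of counts in sum. Bglap, the osteocalcin gene whose promoter drives Ocncre, was at or below 0.31 CPM in CKO-YOUNG. Kdm2b was counted over the whole gene, which does not check the domain deletion, and ranged from 19.9 to 52.9 CPM in CON-YOUNG and from 27.6 to 58.2 in CKO-YOUNG.

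None of the 10 genes passed the test in any of the 8 comparisons made (edgeR quasi-likelihood test, adjusted p under 0.05 over all genes). Their levels nevertheless differed widely between libraries, and they did not form a single pattern. Serpinh1, Bmp1 and Loxl2 were high in the same libraries, while P4ha1 and Plod1 lay within a narrow range in most libraries. Together the 10 genes made up 0.641% to 1.39% of a library's counts, lowest in CON-OLD-iBP 3 and highest in YOUNG 3.

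**Figure D1:**
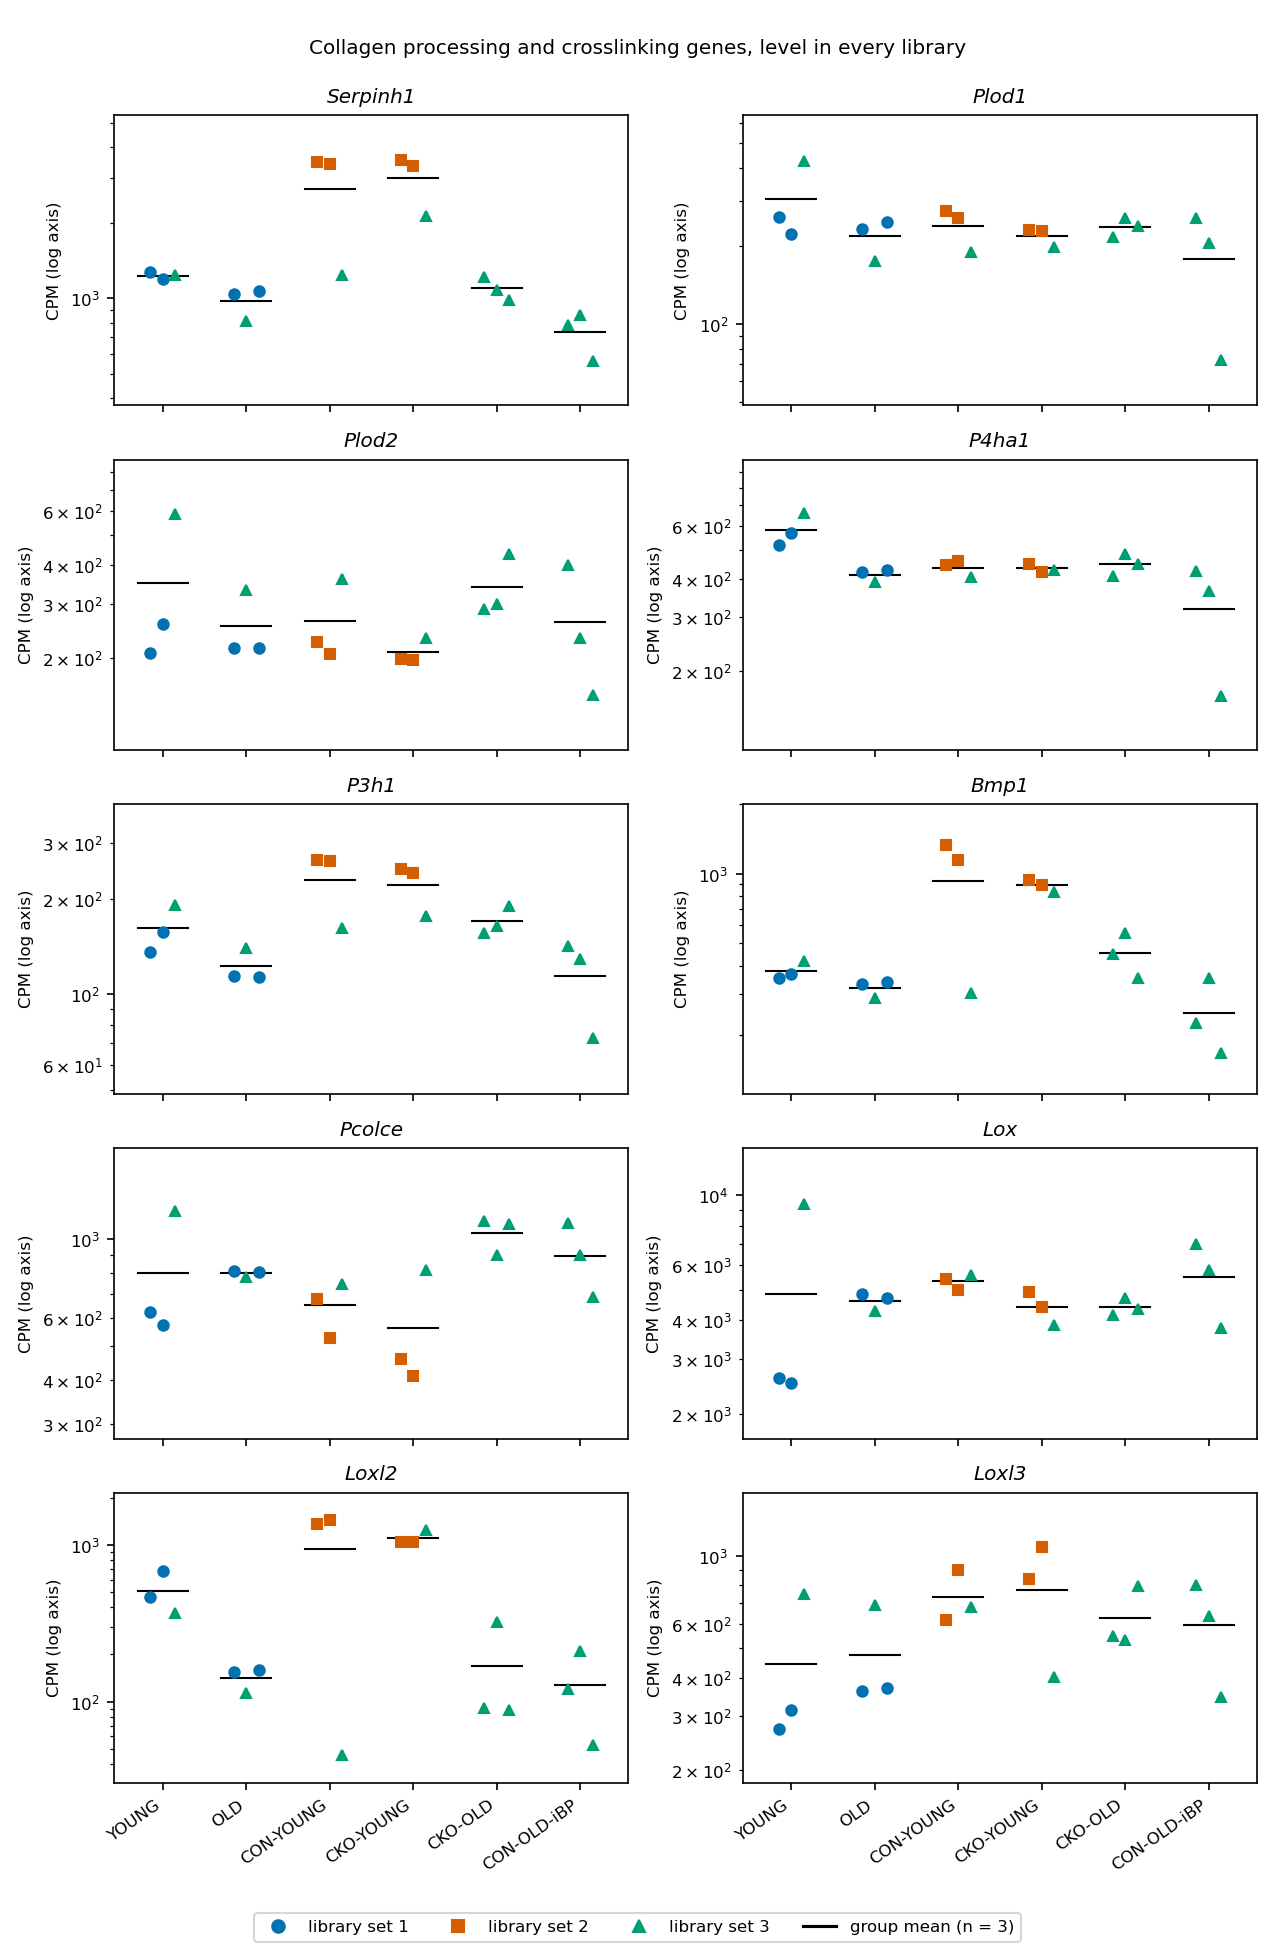
Level of each of the 10 genes in every library, in CPM on a log axis, by group. Points are libraries, coloured and shaped by library set, and the bar is the mean of 3 libraries. Serpinh1, Bmp1 and Loxl2 are high in CON-YOUNG 1 and 2 and in all CKO-YOUNG libraries, and CON-YOUNG 3 lies apart from the other CON-YOUNG libraries.

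Serpinh1, the collagen chaperone, was highest in CKO-YOUNG and CON-YOUNG. Its CPM in libraries 1, 2 and 3 were 1269, 1196 and 1233 in YOUNG, 1042, 812 and 1066 in OLD, and 1221, 1084 and 989 in CKO-OLD. In CON-YOUNG they were 3483, 3432 and 1237, in CKO-YOUNG 3566, 3362 and 2131, and in CON-OLD-iBP 787, 860 and 563. The CKO-YOUNG libraries and CON-YOUNG 1 and 2 lay above the 13 remaining libraries, and CON-YOUNG 3 lay within the range of YOUNG. By mean the groups ran from CKO-YOUNG (3020 ± 776 CPM, SD, n = 3) through CON-YOUNG, YOUNG, CKO-OLD and OLD to CON-OLD-iBP (737 ± 155), a ratio of 4.1. Each group in this order overlapped the next.

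P4ha1, the prolyl 4-hydroxylase subunit, varied least of the 10 genes, with an SD of 0.395 in log2 CPM over the 18 libraries. It stood at 518, 566 and 659 CPM in YOUNG, 421, 390.4 and 429 in OLD, and 444.5, 457 and 407 in CON-YOUNG. In CKO-YOUNG it stood at 449.9, 423 and 428, in CKO-OLD at 409.6, 484 and 447, and in CON-OLD-iBP at 425, 364 and 165. All YOUNG libraries lay above all others, and CON-OLD-iBP 3 lay far below the rest. In the order of means YOUNG (581 ± 71.6 CPM) did not overlap CKO-OLD (447 ± 37.4), and the groups below overlapped their neighbours.

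P3h1, the prolyl 3-hydroxylase, measured 136, 158 and 191 CPM in YOUNG, 114, 140.3 and 113 in OLD, and 266, 263 and 162 in CON-YOUNG. It measured 249, 241 and 176 in CKO-YOUNG, 156, 165 and 190 in CKO-OLD, and 142, 129 and 72.5 in CON-OLD-iBP. The 4 libraries of set 2 were the highest, at 241 to 266, and every group in the order of means overlapped the next.

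Of the lysyl hydroxylases, Plod1 varied little outside 2 libraries. It lay between 175 and 274 CPM everywhere except YOUNG 3 (428) and CON-OLD-iBP 3 (72.7). By group its CPM were 259.9, 224 and 428 in YOUNG, 233, 175 and 248 in OLD, 274, 257 and 191 in CON-YOUNG, 230.4, 229 and 199 in CKO-YOUNG, 217, 258 and 239.6 in CKO-OLD, and 256, 206 and 72.7 in CON-OLD-iBP. Plod2, which acts on telopeptide lysines, was again highest in YOUNG 3 and lowest in CON-OLD-iBP 3. Its CPM were 208, 258 and 586 in YOUNG, 215, 331 and 215 in OLD, and 224, 206 and 361 in CON-YOUNG. They were 198, 197 and 232 in CKO-YOUNG, 288, 299 and 435 in CKO-OLD, and 401, 232 and 151 in CON-OLD-iBP. In YOUNG, OLD, CON-YOUNG and CKO-YOUNG the set 3 library had the highest Plod2 level of its group. The means of both genes overlapped from group to group, and CKO-YOUNG had the lowest Plod2 mean (209 ± 19.8 CPM, n = 3).

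Bmp1, the procollagen C-proteinase, resembled Serpinh1. It stood at 352, 368 and 420.2 CPM in YOUNG, 333, 291 and 338 in OLD, and 1334, 1141 and 305 in CON-YOUNG. It stood at 942, 892 and 834 in CKO-YOUNG, 447, 553 and 354 in CKO-OLD, and 225, 354 and 166 in CON-OLD-iBP. The CKO-YOUNG libraries and CON-YOUNG 1 and 2 were again the highest, from 834 upward, and no other library exceeded 553. CKO-YOUNG (889 ± 54 CPM) did not overlap CKO-OLD (451 ± 99.9), the next group in the order of means, nor did YOUNG overlap OLD.

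Pcolce, which speeds the cleavage made by Bmp1, went the other way. Its CPM were 624, 572 and 1202 in YOUNG, 814, 782 and 806 in OLD, and 678, 525 and 746 in CON-YOUNG. They were 458, 409 and 817 in CKO-YOUNG, 1123, 900.2 and 1106 in CKO-OLD, and 1108, 899 and 685 in CON-OLD-iBP. CKO-OLD had the highest mean (1043 ± 124) and CKO-YOUNG the lowest (561 ± 223), and these groups did not overlap, while neighbours in the order of means did.

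Lox, the main lysyl oxidase, had its lowest and its highest level in the same group. It measured 2621, 2513 and 9399 CPM in YOUNG, 4859, 4288 and 4687 in OLD, and 5407, 5003 and 5570 in CON-YOUNG. It measured 4913, 4391 and 3859 in CKO-YOUNG, 4147, 4716 and 4352 in CKO-OLD, and 6985, 5763 and 3764 in CON-OLD-iBP. The means differed by no more than a ratio of 1.25, from CON-OLD-iBP (5504 ± 1626) to CKO-YOUNG (4388 ± 526), and all neighbours overlapped.

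Loxl2, a relative of Lox, had the widest range of the 10 genes, 31.7-fold from CON-YOUNG 3 to CON-YOUNG 2. The SD of its log2 CPM lay at percentile 96.8 of the genes tested. Its CPM were 466, 685 and 368 in YOUNG, 155, 114 and 158 in OLD, and 1353, 1436 and 45.3 in CON-YOUNG. They were 1051, 1040 and 1246 in CKO-YOUNG, 91.5, 323 and 88.6 in CKO-OLD, and 119.9, 211 and 53 in CON-OLD-iBP. All YOUNG libraries lay above all OLD, CKO-OLD and CON-OLD-iBP libraries, which held no value above 323. By mean the order ran from CKO-YOUNG (1112 ± 116) through CON-YOUNG (945 ± 780.3), YOUNG, CKO-OLD and OLD to CON-OLD-iBP (128 ± 79.1), a ratio of 8.7. YOUNG and CKO-OLD were the only neighbours in it that did not overlap. Loxl2 shares its locus with Gm27177 and Mir6950, and without a stated strand setting reads of overlapping genes cannot be told apart. The same holds for Bmp1 with Gm52136, Plod2 with B430319G15Rik and Loxl3 with Htra2 and Mir7040.

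Loxl3, the last of the lysyl oxidases followed here, varied within every group. It stood at 272, 313 and 749 CPM in YOUNG, 361, 691 and 369 in OLD, and 616, 900.1 and 679 in CON-YOUNG. It stood at 839, 1068 and 400.3 in CKO-YOUNG, 546, 529 and 798 in CKO-OLD, and 803, 633 and 347 in CON-OLD-iBP. In YOUNG and OLD the set 3 library was the highest, in CKO-YOUNG it was the lowest, and all neighbours in the order of means overlapped.

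The extremes gathered in a few libraries. YOUNG 3 was the highest of the 18 libraries for 5 of the 10 genes (Plod1, Plod2, P4ha1, Pcolce and Lox). In the same library the 8 chondrocyte markers made up 1.47% of counts, against 0.00604% to 1.11% in the others. CON-OLD-iBP 3 was the lowest for 6 of the 10 (Serpinh1, Plod1, Plod2, P4ha1, P3h1 and Bmp1), and it also had the lowest share of osteoblast markers, 1.34%. The part of these markers in the levels was not tested.

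Age in wild type cells was compared by OLD against YOUNG. Loxl2 was 506.6 ± 162 CPM in YOUNG and 142 ± 24.7 in OLD, and its log2 fold change was -1.83 ± 0.84 (SE, adjusted p = 1, unadjusted p = 0.0448). P4ha1 differed by -0.49 ± 0.25 (adjusted p = 1). None of the 10 genes was called, and neither was any of the 16566 genes (0%), with 554 at an unadjusted p under 0.05 and 43 called by DESeq2. The median log2 fold change of the 10 genes was -0.37, against -0.03 over all genes. Serpinh1, P4ha1, Bmp1 and Loxl2 had every OLD library below every YOUNG library, as had 5.63% of all genes, and none of the 10 was higher without overlap (5.73% of all genes). Within set 1 Loxl2 differed by -1.88 (adjusted p = 0.373) and within set 3, where each age had 1 library, by -1.70 (0.543). Other cell type markers moved as well: all 7 osteoclast markers had a higher mean in OLD (0.0246% to 0.216% of counts in sum, against 0.0168% to 0.0207%). Of 8 chondrocyte markers 7 had a lower mean in OLD, as had 8 of 10 osteoblast markers (2.73% to 3.54%, against 3.89% to 4.1%). The chondrocyte share was 0.0722% to 0.112% in OLD, against 1.47% in YOUNG 3 but 0.0262% and 0.00604% in YOUNG 1 and 2. The part of these markers in the result was not tested. Lox changed sign between the sets: OLD was higher by 0.89 within set 1 (adjusted p = 0.229), and the difference was -1.13 within set 3.

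Deletion of the Kdm2b CxxC domain in young cells was compared by CKO-YOUNG against CON-YOUNG. The smallest p-values among the 10 genes belonged to Plod2, 209 ± 19.8 against 263 ± 84.6 CPM (log2 fold change -0.34 ± 0.39, adjusted p = 1, and -0.04 without CON-YOUNG 3), and Lox, 4388 ± 526 against 5326 ± 292 (-0.28 ± 0.39, adjusted p = 1). Lox was the single gene of the 10 whose groups did not overlap, lower in CKO-YOUNG, as were 3.19% of all genes, while 5.32% were higher. None of the 10 was called, against 21 genes (0.127%) in all, and with the replicate number as a block 0 genes were called. Their median log2 fold change was -0.06, against -0.01 over all genes. Within set 2 Loxl2 differed by -0.42 (adjusted p = 1). Within set 3, which holds 1 library of each group, it was 1246 CPM in CKO-YOUNG 3 and 45.3 in CON-YOUNG 3, a difference of 4.78 (adjusted p = 0.0215, with the spread taken from the other libraries, 6.72% of all genes called). The 2 sets thus gave opposite signs for Loxl2, and Bmp1 (-0.43 and 1.45) did the same.

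In old cells the deletion was compared by CKO-OLD against OLD, groups that differ in driver and reporter too. They also differ in library set: OLD 1 and 3 are of set 1 and expressed Xist, while all CKO-OLD libraries are of set 3 and expressed Ddx3y. P3h1 was 170.3 ± 17.6 CPM in CKO-OLD and 122.5 ± 15.35 in OLD, a log2 fold change of 0.47 ± 0.25 (adjusted p = 0.644). Bmp1 was 451 ± 99.9 against 321 ± 26.2 (0.49 ± 0.39, adjusted p = 0.782, and 0.32 without CKO-OLD 2). Of the 10 genes 9 had a higher mean in CKO-OLD, with a median of 0.31 against -0.01 over all genes. Under other settings the sign turned for some of them: the lowest difference was -0.05 for Plod1, -0.21 for Plod2, -0.66 for Loxl2 and -0.30 for Loxl3. None of the 10 was called, against 1 gene in all (0.00604%). All 14 macrophage markers had a lower mean in CKO-OLD (0.141% to 0.615% of counts, against 0.144% to 1.1%). So had all 7 osteoclast markers (0.0128% to 0.0351%, against 0.0246% to 0.216%). The high shares in OLD were those of OLD 1 and 3, of set 1 (macrophage 1.104% and 1.096%, osteoclast 0.2097% and 0.2157%). OLD 2, of set 3 like CKO-OLD, had 0.1441% and 0.02456%, within the ranges of CKO-OLD. The part of these markers in the result was not tested. P3h1, Bmp1 and Pcolce did not overlap between the groups and were higher in CKO-OLD, as were 8.9% of all genes, while 8.47% were lower. Within set 3, where OLD has 1 library, P3h1 differed by 0.28 and Bmp1 by 0.63. The difference between the old and the young deletion effect had the smallest p-values for P3h1 (0.53 ± 0.36, adjusted p = 0.963) and Pcolce (0.59 ± 0.43, adjusted p = 0.963, from 0.39 without CKO-YOUNG 2 to 0.97 without CKO-YOUNG 3). That test called none of the 10 genes and none of all genes (0%), with 796 at an unadjusted p under 0.05 and 56 called by DESeq2.

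CON-OLD-iBP was compared with both other old groups. Its libraries are of set 3 and expressed Ddx3y, while OLD 1 and 3 are of set 1 and expressed Xist. Against OLD, P4ha1 was 318 ± 136 and 413 ± 20.3 CPM (log2 fold change -0.38 ± 0.25, adjusted p = 0.37) and Serpinh1 737 ± 155 and 973 ± 140.4 (-0.40 ± 0.32, adjusted p = 0.478). Without CON-OLD-iBP 3 these differences were -0.09 and -0.26, and without CON-OLD-iBP 1 that of P4ha1 was -0.66. None of the 10 was called, against 4 genes (0.0241%), and their median was -0.13 against 0 over all genes. All 14 macrophage markers had a lower mean in CON-OLD-iBP than in OLD (0.0497% to 0.0979% of counts, against 0.144% to 1.1%), as had all 7 osteoclast markers (0.0171% to 0.0243%, against 0.0246% to 0.216%), and their part was not tested. All 10 genes overlapped between these groups, while 14.3% of all genes were higher and 15.8% lower without overlap. Against CKO-OLD the 10 genes were lower in 9 cases, with a median of -0.40 against -0.01. P3h1 was 114.5 ± 36.9 and 170.3 ± 17.6 CPM (-0.57 ± 0.25, adjusted p = 0.226, and -0.35 without CON-OLD-iBP 3) and Bmp1 248 ± 96.1 and 451 ± 99.9 (-0.86 ± 0.39, adjusted p = 0.24). None was called, against 213 genes (1.29%), and Serpinh1 and P3h1 had no overlap, lower in CON-OLD-iBP, as had 16% of all genes, while 14.5% were higher. All libraries of this comparison belong to set 3. With the spread estimated within sets, Serpinh1 (-0.58, adjusted p = 0.0347) and Bmp1 (-0.86, adjusted p = 0.0307) passed the threshold, together with 18.7% of all genes. Macrophage markers made up 0.0497% to 0.0979% of counts in CON-OLD-iBP and 0.141% to 0.615% in CKO-OLD, and their part in the result was not tested. OLD is the reference in both CKO-OLD and CON-OLD-iBP comparisons with it, so these share 3 libraries.

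The smallest adjusted p-value of any of the 10 genes came from CKO-OLD against CKO-YOUNG. These groups differ in library set as well as age: CKO-YOUNG 1 and 2 are of set 2, while all CKO-OLD libraries are of set 3. CKO-YOUNG 3, of set 3, expressed Xist at 372 CPM, against 0 to 0.28 CPM in CKO-OLD. The part of these differences in the result was not tested. Serpinh1 was 1098 ± 116 CPM in CKO-OLD and 3020 ± 776 in CKO-YOUNG, a log2 fold change of -1.46 ± 0.32 (adjusted p = 0.051). Loxl2 was 168 ± 134 against 1112 ± 116 (-2.73 ± 0.87, adjusted p = 0.091). Serpinh1, Bmp1 and Loxl2 were lower without overlap, as were 15.2% of all genes, and Plod2 and Pcolce higher, as were 16.3%. No member of the group was called, against 116 genes (0.7%), and their median was -0.15 against 0 over all genes. The calls depended on the method. DESeq2 called Serpinh1, Loxl2 and Pcolce (adjusted p = 0.000921, 0.0095 and 0.0373, with 12.5% of all genes called). Limma-voom called Serpinh1 (adjusted p = 0.0441, 1.53% of genes), and a fit of these groups alone Serpinh1 and Loxl2 (adjusted p = 0.0336 and 0.0428, 4.87%). Within set 3, where CKO-YOUNG has 1 library, Serpinh1 differed by -0.96 (adjusted p = 0.0329) and Loxl2 by -2.89 (0.0295), with 5.38% of all genes called. Without CKO-YOUNG 3, Serpinh1 (-1.66, adjusted p = 0.0116) and Pcolce (1.27, 0.0199) passed, as did 15.7% of all genes, whereas leaving out any other of the 6 libraries left 0 genes called. Beside these genes, smooth muscle markers made up 0.149% to 0.203% of counts in CKO-OLD and 0.588% to 0.682% in CKO-YOUNG, with all 6 lower in CKO-OLD. All 14 macrophage markers (0.141% to 0.615%, against 0.014% to 0.101%) and all 7 osteoclast markers (0.0128% to 0.0351%, against 0.00859% to 0.0119%) were higher in mean in CKO-OLD. The part of these markers in the result was not tested. Of 10 osteoblast markers 6 had a higher and 4 a lower mean in CKO-OLD, Col1a1 (-0.98) and Col1a2 (-0.69) being lower without overlap, and 2 passed the test. These were Spp1 and Bglap, which rose: Spp1 stood at 11960, 11530 and 10350 CPM in CKO-OLD against 2351, 1848 and 1487 in CKO-YOUNG (log2 fold change 2.57, adjusted p = 0.0253). Bglap stood at 83.5, 43.2 and 49.5 against 0.152, 0 and 0.306 (adjusted p = 0.0389). Both calls were lost on leaving out any 1 library but CKO-YOUNG 3 (adjusted p 0.0835 to 0.183).

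CON-YOUNG and YOUNG, the young controls of the knockout and the age experiment, were compared as well. YOUNG 1 and 2 expressed Xist, while YOUNG 3 and all CON-YOUNG libraries expressed Ddx3y. Serpinh1 was 2717 ± 1282 CPM in CON-YOUNG and 1233 ± 36.2 in YOUNG (log2 fold change 1.14 ± 0.32, adjusted p = 0.0514), and Bmp1 927 ± 547 against 380 ± 35.8 (1.29 ± 0.40, adjusted p = 0.0705). The test called none of the 10, against 919 genes (5.55%), and their median was 0.32 against -0.01 over all genes. With the replicate number as a block, 0 genes were called. DESeq2 called Serpinh1 and Bmp1 (12.8% of genes). Without CON-YOUNG 3 Serpinh1 (1.49, adjusted p = 0.00204) and Bmp1 (1.70, adjusted p = 0.00169) passed, with 17.1% of all genes. Within set 3, CON-YOUNG 3 against YOUNG 3, Serpinh1 differed by 0.00 and Bmp1 by -0.46. Without YOUNG 3, Lox passed (1.02, adjusted p = 0.0196), with 7.26% of all genes. Leaving out YOUNG 1, CON-YOUNG 1 or CON-YOUNG 2 left 0 genes called, and leaving out YOUNG 2 left 304. P4ha1 was the single gene of the 10 without overlap, lower in CON-YOUNG, as were 13% of all genes, while 10.1% were higher. All 14 macrophage markers fell (Csf1r, Cd68, Adgre1, Laptm5, Itgam and Ctss by smallest p among them), to 0.019% to 0.0466% of counts from 0.345% to 1.54%, and their part in the levels of the 10 genes was not tested.

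**Figure D2:**
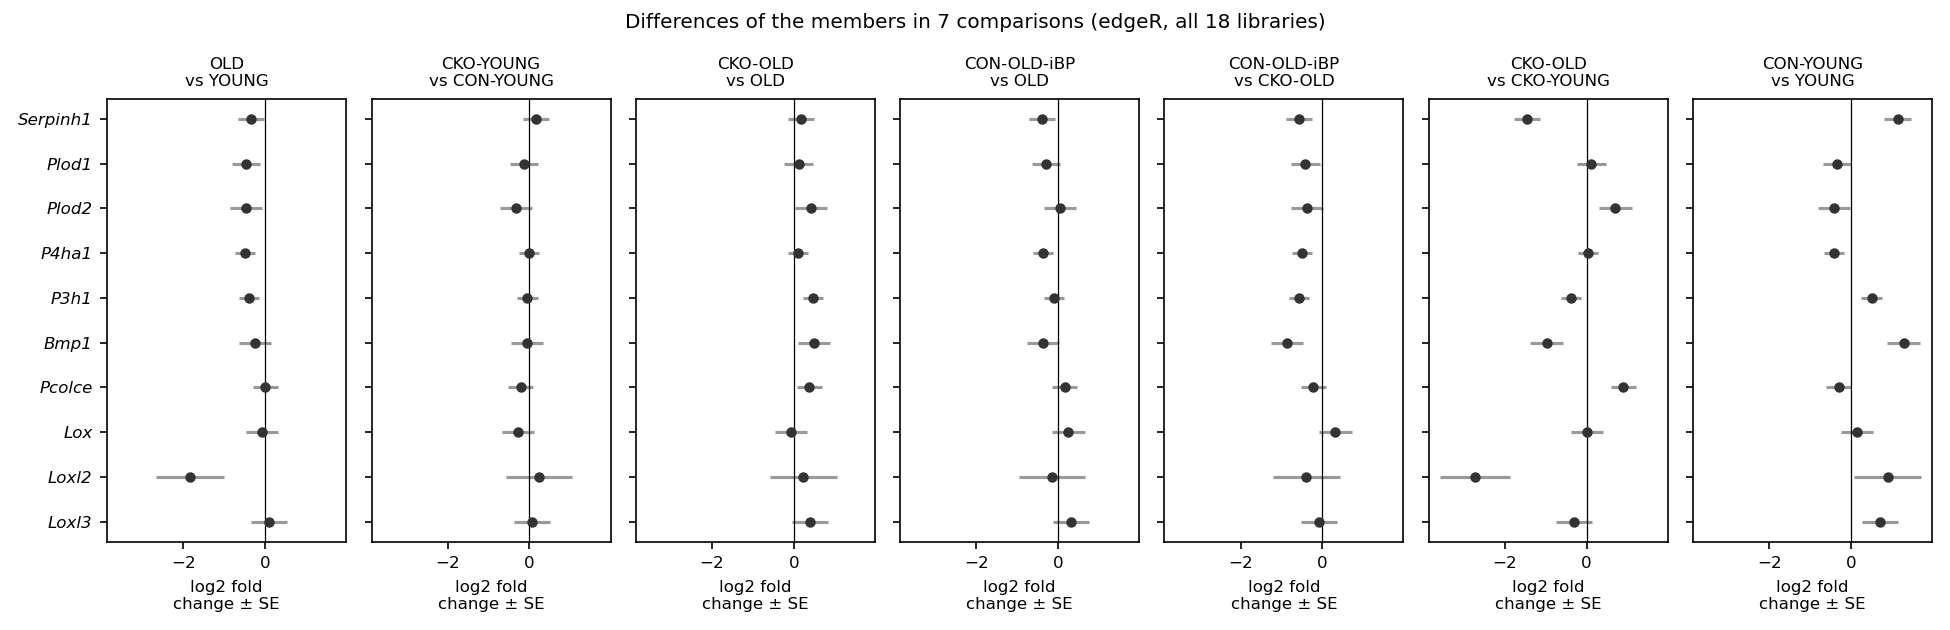
Log2 fold change of the 10 genes in 7 comparisons, with bars of 1 SE from the edgeR fit over 18 libraries. Serpinh1 (-1.46) and Loxl2 (-2.73) are lower in CKO-OLD than in CKO-YOUNG, and no gene passes the adjusted threshold in any panel.

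Across the 18 libraries some of the 10 genes varied together, but they did not part into clear sets. Correlations were computed on log2(CPM + 0.5) and describe libraries that share groups, sets and marker shares. Serpinh1 and Bmp1 were the most alike (Pearson's r = 0.950, Spearman's rho = 0.822), and r was 0.899 over the 10 libraries of set 3. P3h1 and Loxl2 varied with both, at r = 0.831 to 0.866, and at 0.663 to 0.805 in set 3. Plod1 and P4ha1 had r = 0.932 and 0.974 in set 3, but this rested on YOUNG 3 and CON-OLD-iBP 3, without which r was 0.503. Plod2 went with Pcolce (r = 0.700, 0.575 without YOUNG 3 and CKO-OLD 3). Within set 3 its r was 0.704 with Pcolce but 0.862 with Loxl3, 0.853 with Plod1 and 0.841 with P4ha1. Over all libraries Loxl3 had r = 0.625 with Lox and 0.652 with P3h1. Pcolce ran opposite to Serpinh1, Bmp1, Loxl2 and P3h1 over all libraries (r = -0.628, -0.474, -0.570 and -0.329), but within set 3 all 4 were positive (0.188, 0.225, 0.183 and 0.596). The place of P3h1 also differed within set 3, where r was 0.942 with P4ha1 and 0.872 with Plod1 but 0.445 with Loxl2. Over all libraries r of P3h1 was 0.598 with P4ha1 and 0.606 with Plod1, and 0.173 and 0.256 without YOUNG 3 and CON-OLD-iBP 3, both of set 3.

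**Figure D3:**
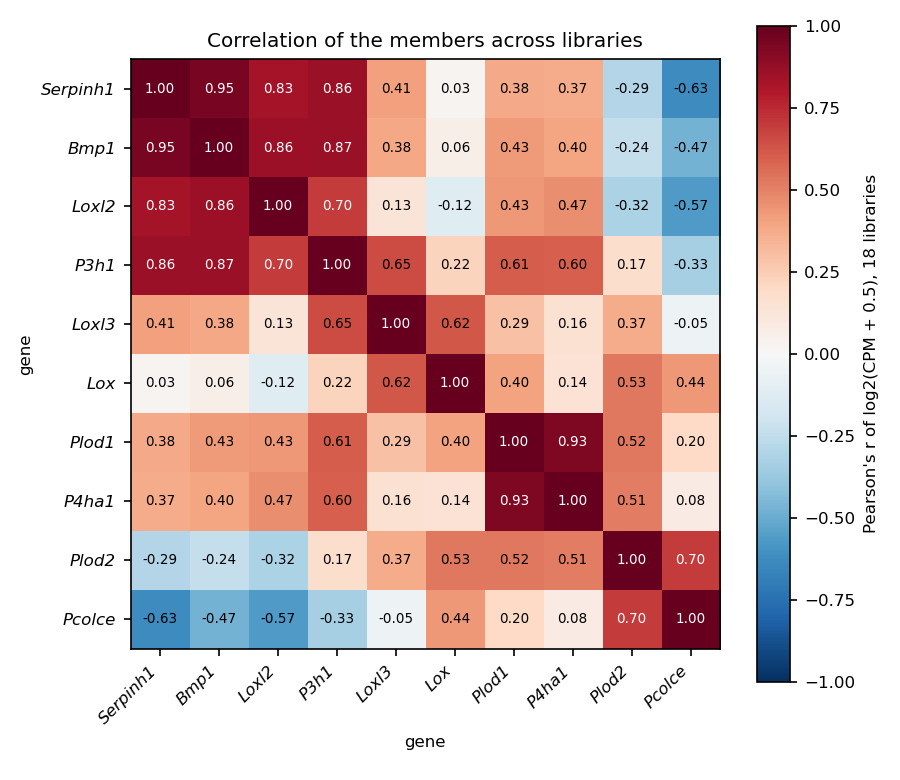
Pearson's correlation of log2(CPM + 0.5) between the 10 genes over 18 libraries, from blue (negative) to red (positive). Serpinh1, Bmp1, Loxl2 and P3h1 form a block at 0.70 to 0.95, and Pcolce is negative with all of them, which did not hold within set 3.

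The genes nearest to each of the 10 were sought among 11005 genes with a mean of at least 5 CPM. Loxl2 had Col5a1, which encodes a chain of collagen V, as its nearest (r = 0.978, and 0.949 in set 3). Col5a1 stood at 3744 and 3724 CPM in CON-YOUNG 1 and 2 and 859 in CON-YOUNG 3. Loxl2 had its lowest level of all libraries in CON-YOUNG 3, while Col5a1 went down to 655 elsewhere. Bmp1 lay nearest to Cdc42ep1 (0.970) and to Fam20a (0.959), which takes part in the phosphorylation of secreted proteins of mineralised tissue. Serpinh1 lay nearest to Gjc1, a gap junction gene (0.966), and Rexo1 (0.960), and P3h1 to the hedgehog receptor Ptch1 (0.955) and Armcx4 (0.950). Pcolce lay nearest to Npdc1 (0.915) and Tmem45a (0.908), whose r fell to 0.679 and 0.614 in set 3. Lox lay nearest to Aebp1 (0.889) and the glucose transporter Slc2a1 (0.881). For Loxl3 the nearest were Phrf1 (0.936) and Ckap4 (0.926), and for Plod2 the nucleotide sugar genes Slc35a2 (0.893) and Uxs1 (0.879). Plod1 and P4ha1 had each other and Slc38a10 (0.937 for both, 0.569 and 0.506 without YOUNG 3 and CON-OLD-iBP 3).

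**Figure D4:**
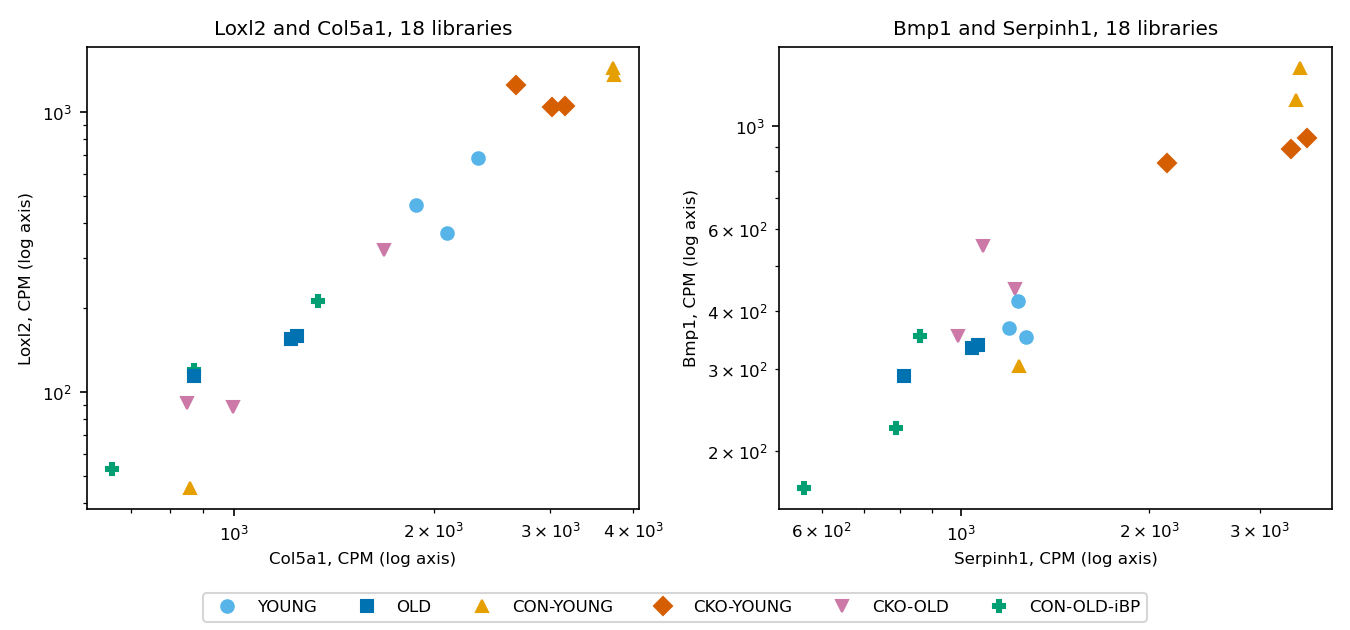
Loxl2 against Col5a1 and Bmp1 against Serpinh1, in CPM on log axes, 1 point per library and a colour and shape per group. Both pairs rise together over the 18 libraries, with CON-YOUNG 3 among the low libraries and the other CON-YOUNG libraries among the high.

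Other genes of the pathway were read from lists. Of 14 further folding and hydroxylation genes (among them P4hb, Crtap, Ppib, Plod3 and Fkbp10), 1 passed in any comparison. This was Tmem38b, which encodes a cation channel of the endoplasmic reticulum whose loss gives brittle bone. It stood at 47.6, 61 and 46.1 CPM in CKO-OLD, 22, 28.1 and 18.8 in CON-OLD-iBP, and 27.9, 23.1 and 25.7 in CKO-YOUNG, so that CKO-OLD lay above both without overlap. OLD, at 40.4, 54.1 and 40.6 CPM, overlapped CKO-OLD and also lay above CON-OLD-iBP without overlap (log2 fold change of CON-OLD-iBP against OLD -0.97, adjusted p = 0.0538). Tmem38b fell in CON-OLD-iBP against CKO-OLD (log2 fold change -1.17 ± 0.20, adjusted p = 0.0228) and rose in CKO-OLD against CKO-YOUNG (1.01 ± 0.20, adjusted p = 0.0389). The first call was lost on leaving out any 1 library but CON-OLD-iBP 2 (adjusted p up to 0.112) and the second on leaving out any 1 but CKO-YOUNG 3 (up to 0.173). Against CKO-OLD, 13 of the 14 folding genes (median -0.40) and 9 of 9 collagen secretion genes (median -0.37) had a lower mean in CON-OLD-iBP, where 48.8% of all genes had a higher mean and the median was -0.01. All 14 macrophage, 10 osteoblast and 10 cell cycle genes were lower in mean there too, and their part was not tested. None of the secretion genes passed in any comparison.

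Of 10 further propeptide cleavage and crosslinking genes 8 could be tested, and 2 passed. Loxl1, a lysyl oxidase that also acts on elastin, rose in CON-YOUNG against YOUNG (2.50 ± 0.65, adjusted p = 0.0398). It stood at 946, 1038 and 178 CPM in CON-YOUNG and 176, 143 and 63.7 in YOUNG, and leaving out any 1 of these libraries but CON-YOUNG 3 lost the call (adjusted p 0.0963 to 0.178). Within set 3 Loxl1 differed by 1.48 (adjusted p = 0.504). Adamts3, an N-propeptidase, fell in CON-OLD-iBP against CKO-OLD (-2.51 ± 0.53, adjusted p = 0.0388), from 3.66, 5.15 and 4.04 CPM to 0.929, 0.991 and 0.324. That call was lost on leaving out any 1 library but CON-OLD-iBP 2 (adjusted p up to 0.137). Loxl1, Adamts2 and Adamts14 had the same high libraries as Serpinh1, Bmp1 and Loxl2. In CON-YOUNG 1 and 2 and CKO-YOUNG 1 to 3, Loxl1 lay at 876 to 1040 CPM and Adamts2, the main N-propeptidase, at 700 to 1090, and in the other 13 libraries at 44.1 to 419 and 42.4 to 412. Col3a1 did likewise (4300 to 10400 against 345 to 2740), and so did Col5a1 (2660 to 3740 against 655 to 2330). In the same 5 libraries smooth muscle markers made up 0.535% to 0.682% of counts, against 0.0371% to 0.405% in the other 13, and macrophage markers 0.014% to 0.101%, against 0.0466% to 1.54%. The part of these markers in the levels was not tested, and in bulk libraries fewer cells of a type and less RNA per cell cannot be told apart.

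None of 11 fibrillar collagen genes passed in any comparison. In OLD against YOUNG 9 of the 11 had a lower mean, with a median log2 fold change of -0.91 against -0.03 over all genes. They include the cartilage collagens Col2a1 (-7.87), Col11a1 (-2.03) and Col11a2 (-4.06), and 7 of 8 chondrocyte markers, a list that also holds Col2a1, had a lower mean in OLD. The summed share of these markers was 1.47% of counts in YOUNG 3 but 0.0262% in YOUNG 1 and 0.00604% in YOUNG 2, below the 0.0722% to 0.112% of OLD. Their part in the result was not tested. Col1a1, a chain of collagen I, ranged from 2910 CPM in CON-OLD-iBP 3 to 32710 in CON-YOUNG 1. This was a wider range than that of any of the 10 genes but Loxl2. Col1a1 correlated with Serpinh1 at r = 0.891 (rho = 0.963). Set against Col1a1, the 10 genes therefore changed order. The log2 ratio of Pcolce to Col1a1, relative to its median over the 18 libraries, lay between -2.04 and -0.53 in CON-YOUNG and CKO-YOUNG and between 0.53 and 1.72 in CON-OLD-iBP. For Lox the ratio lay between -1.07 and -0.11 in CON-YOUNG, between -0.85 and -0.57 in CKO-YOUNG and between 0.93 and 1.90 in CON-OLD-iBP. In OLD it lay between 0.37 and 1.13, and in YOUNG the ratio was -1.20 and -1.24 in set 1 and 0.97 in YOUNG 3. Serpinh1 had the narrowest range of ratios to Col1a1, with none outside -0.58 to 0.89, while Loxl2 lay between -3.20 and 1.66. These ratios are levels of messenger RNA and no test was made on them.

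**Figure D5:**
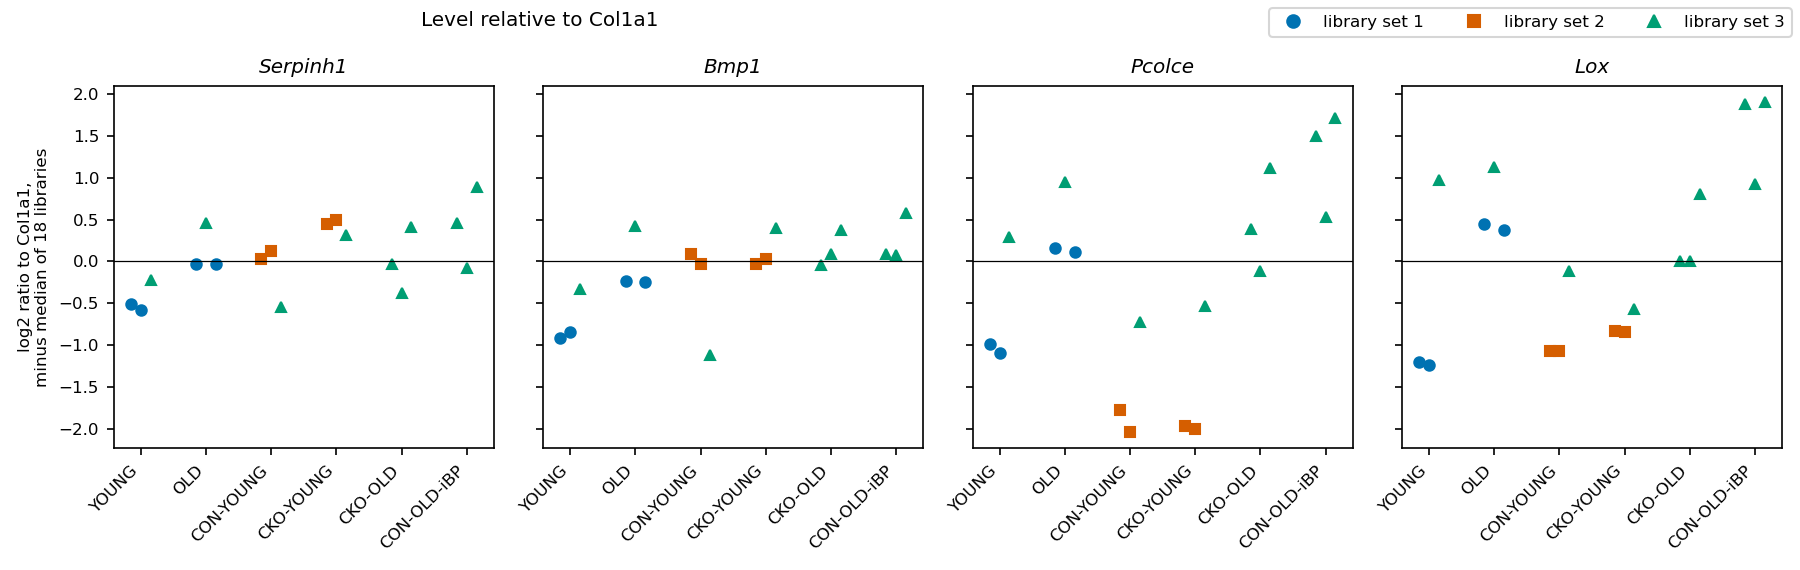
Log2 ratio of the CPM of Serpinh1, Bmp1, Pcolce and Lox to that of Col1a1, minus its median over 18 libraries, by group and library set. Pcolce and Lox lie lowest relative to Col1a1 in set 2 and in YOUNG 1 and 2, and have their highest values in CON-OLD-iBP, while Serpinh1 stays between -0.58 and 0.89.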

How the data were processed

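Counts per gene were used as deposited by the authors in a table of 26264 symbols by 18 RNA libraries, of which 24964 symbols matched a table of gene names. The submitters' processing notes name FastQC, Trim Galore, HISAT2 and the build mm39. No label or header names the counting program or its strand setting. The 8 CUT&Tag samples were not analysed here. Genes with low counts were removed (filterByExpr, minimum count 10, minimum total 15), leaving 16566. All 18 libraries entered 1 fit with a coefficient per group and TMM scaling, which left 12 residual degrees of freedom, in edgeR 4.0.16 (R 4.3.3), by the robust quasi-likelihood F test. P-values were adjusted by Benjamini-Hochberg over all genes tested, with a threshold of 0.05. The biological coefficient of variation was 51.9%. CPM were computed on TMM library sizes. The method was also run on simulated counts. Its recovery there is not given here, so how large a change the test could find in these data is not stated. Depth is not the limit for these genes, since 1 count is at most 0.0203 CPM.

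The 10 genes and all gene lists were chosen with earlier results of these data known. Named genes were the members past the threshold or, failing that, the 2 of smallest p in each comparison (values of particular interest beyond these were chosen after they were seen), up to 6 genes past the threshold from each list, and the 2 genes most like each member. Alternatives were RLE scaling, DESeq2 1.42.0, limma-voom (limma 3.58.1), no filter, leaving out each library, the compared groups alone with and without a replicate block, a term for library set and fits within sets. Fits without library set 1, and without CON-YOUNG 3 and CKO-YOUNG 3, were chosen after seeing the data. Libraries of the same replicate number deviated together in CKO-YOUNG and CON-YOUNG (correlations of 0.276, 0.333 and 0.324). They did so in CON-YOUNG and YOUNG too (0.179, 0.355 and 0.343). The main test used no pairs, and the replicate block was only an alternative. Replicate 3 was the set 3 library in each of these groups, and whether the numbers mark pairs or library sets was not tested. Where an arm had 1 library, it was assumed to vary like the others. OLD 1 and OLD 3 were the most alike (Spearman's rho over genes of 0.995) and were kept as 2 samples. Counting noise alone did not account for the gap between them. Scaled by that noise, the median squared gap over genes came to 6.34, and every other pair within a group gave 14.2 or more. Over the 10 genes the median log2 gap of OLD 1 and OLD 3 was 0.03. Such gaps do not show that these libraries are independent, which was not tested. If they are not, the SDs and tests of OLD rest on fewer than 3 independent samples.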

Additional observations from a re-analysis of the deposited data

How the results depend on the processing

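RLE scaling changed no call count by more than 1.5 times. The number of genes called over all genes, given here in the order OLD against YOUNG (0), CKO-YOUNG against CON-YOUNG (21), CKO-OLD against OLD (1), CON-OLD-iBP against OLD (4), CON-OLD-iBP against CKO-OLD (213), CKO-OLD against CKO-YOUNG (116), CON-YOUNG against YOUNG (919) and the difference of knockout effects (0), moved with most other choices, and the cause was not tested. DESeq2 called 43, 237, 193, 2089, 1451, 2042, 2095 and 56 genes. Among them were 3 of the 10 genes described here in CKO-OLD against CKO-YOUNG and 2 in CON-YOUNG against YOUNG. Limma-voom called 65 in CKO-YOUNG against CON-YOUNG and 46 in CON-OLD-iBP against OLD. It called 253 in CKO-OLD against CKO-YOUNG (1 of the 10 genes) and 553 in CON-YOUNG against YOUNG. Without the filter CKO-OLD against OLD had 2 and CON-OLD-iBP against CKO-OLD 125. Fits of the compared groups alone called 4, 4, 30, 679, 736 (2 of the 10 genes) and 1 from the second comparison to the seventh. The same fits with a replicate block called 0, 0, 2, 649, 230 and 0. Outside the 2 comparisons of young groups in which libraries of the same number deviated together, the replicate block rests on shared numbers only. It called none of the 10 genes in any comparison. A term for library set gave 93, 4, 0, 2035, 6 and 0 from the second comparison to the seventh.

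Within set 1, OLD against YOUNG had 63 calls, and within set 2, CKO-YOUNG against CON-YOUNG had 76. Within set 3 the 8 comparisons had 9, 1113 (1 enzyme), 9, 142, 3100 (2 enzymes), 892 (2 enzymes), 22 and 4, and Bmp1 turned to -0.46 in CON-YOUNG against YOUNG. Without library set 1, calls were 8 in CKO-YOUNG against CON-YOUNG, 0 in CKO-OLD against OLD, 0 in CON-OLD-iBP against OLD, 0 in CKO-OLD against CKO-YOUNG and 8 in CON-YOUNG against YOUNG. Without CON-YOUNG 3 and CKO-YOUNG 3 the difference of knockout effects had 1. Leaving out 1 library at a time gave 0 to 2, 2 to 23, 0 to 48, 0 to 1346, 2 to 512, 0 to 2655, 0 to 2924 and 0 to 0 genes. Of the 10 genes, 0 to 2 were called in CKO-OLD against CKO-YOUNG and in CON-YOUNG against YOUNG. The highest counts came without YOUNG 3, CON-YOUNG 3, OLD 2, OLD 2, CON-OLD-iBP 2, CKO-YOUNG 3 and CON-YOUNG 3 in turn. Without CON-YOUNG 3 the median of all genes in CON-YOUNG against YOUNG moved to -0.11.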

Other observations

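Genes outside collagen processing were read from further lists. All 10 cell cycle genes had a lower mean in CON-OLD-iBP than in OLD (median log2 fold change -1.64) and than in CKO-OLD (median -1.18), against 0 and -0.01 over all genes, and none passed the edgeR test (smallest adjusted p = 0.0599 and 0.103). None of 10 fibril assembly genes and none of 8 TGF-beta target genes passed in any comparison.

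Of 19 hypoxia and glycolysis genes 1 passed: Car9, a carbonic anhydrase, fell in CON-YOUNG against YOUNG by 3.85 on the log2 scale (adjusted p = 0.0485). The call was lost on leaving out any 1 library but CON-YOUNG 3, and without YOUNG 3 the difference was -1.46 (adjusted p = 0.282). Of 4 endothelial markers tested Kdr fell in the same comparison (-4.12, adjusted p = 0.02), a call lost without YOUNG 1, YOUNG 2, CON-YOUNG 1 or CON-YOUNG 2 (adjusted p up to 0.122). Of 10 osteoblast markers 6 had a higher and 4 a lower mean there (median 0.41). Runx2 (0.73), Col1a1 (0.74) and Col1a2 (0.71) were higher without overlap, as were 10.1% of all genes, and did not pass the test. All 4 with a lower mean, Ibsp (-4.07), Bglap (-4.19), Dmp1 (-4.41) and Spp1, did not overlap, as did 13% of all genes. Only Spp1 of these passed. Spp1 fell (-1.47, adjusted p = 0.0459), a call lost without any 1 library but CON-YOUNG 3 (adjusted p up to 0.206).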
